A study of Mus musculus with 4 samples.

Results

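Meis occupancy was examined around Pax3, Lbx1 and Met, 3 genes of the muscle progenitors that enter the limb, in forelimb (FL) and hindlimb (HL) buds. The members are the Meis peaks whose summit, the base of highest enrichment, lies in a window on chromosome 1 from 77.7 to 78.5 Mb (Pax3), on chromosome 19 from 45.0 to 45.6 Mb (Lbx1) or on chromosome 6 from 17.2 to 17.65 Mb (Met), all in the mouse build mm9. They were thus chosen by position among called peaks, and the Pax3 window was selected with a shared site near 78.018 Mb already known to be higher in HLs. The windows held 28 of 21338 FL peaks (30 of 22906 summits) and 27 of 16987 HL peaks (27 of 17810 summits).

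The peaks come from ChIP-seq against Meis1 and Meis2 in wild-type C57BL/6 embryos at E10.5 (about 36 somites). About 500 FLs and about 500 HLs were pooled, 2 anti-Meis antibodies were used together, and from each pool 1 ChIP library was sequenced beside 1 library of its input. There were no replicates, so FLs and HLs are compared by description, with no error and no test. Whole buds were used, so a difference in the share of cells that carry a bound site and a difference in binding per cell cannot be told apart. Peak lists hold no expression values, and the presence of muscle progenitors in the buds was not checked here.

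Limb muscle comes from cells of the somites that detach from the ventrolateral dermomyotome and migrate into the bud. Pax3, a paired-box transcription factor, is needed in these cells and acts upstream of Met, the receptor tyrosine kinase through which they respond to Hgf from the limb mesenchyme, while Lbx1 is a homeobox transcription factor that the migrating cells switch on. Meis1 and Meis2 are TALE homeodomain transcription factors, best known in the limb for their place in the proximal mesenchyme.

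The 3 windows differed in how many Meis peaks they held and in how strong these were. Fold, the ChIP signal at the summit over the local input background, reached 13.4 in the Pax3 window, 5.36 in the Lbx1 window and 3.76 in the Met window. The 13.4 was in HLs at the site known to be higher in HLs when the window was chosen. The next highest fold of the Pax3 window was 6.30, also in HLs. The Pax3 window held 7 peaks in FLs and 10 in HLs, the Lbx1 window 18 and 16, and the Met window 3 and 1. FL summits numbered 8.75 per Mb in the Pax3 window, 33.3 in the Lbx1 window and 6.67 in the Met window, beside 8.71 per Mb over the whole FL list. HL summits numbered 12.5, 26.7 and 2.22 per Mb in the same order, beside 6.77 per Mb over the HL list. Over the 3 windows together the density was 16.2 FL and 14.6 HL summits per Mb. The Lbx1 window was the densest of the 3 in both limbs, although its median fold (2.70 in FLs and 2.75 in HLs) was close to the median of each full list (2.78 in both). Most of its peaks were weak, with a q above 0.05 for 15 of 18 in FLs and 16 of 16 in HLs. Over the full lists this held for 17616 of 21338 FL and 15266 of 16987 HL peaks. The median fold of the Pax3 window was 3.63 in FLs and 2.88 in HLs, where 2 of the 10 peaks had a fold above 5. Of all 16987 HL peaks, 794 had a fold of at least 5, and the 2 include the site known when the window was chosen.

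**Figure D1:**
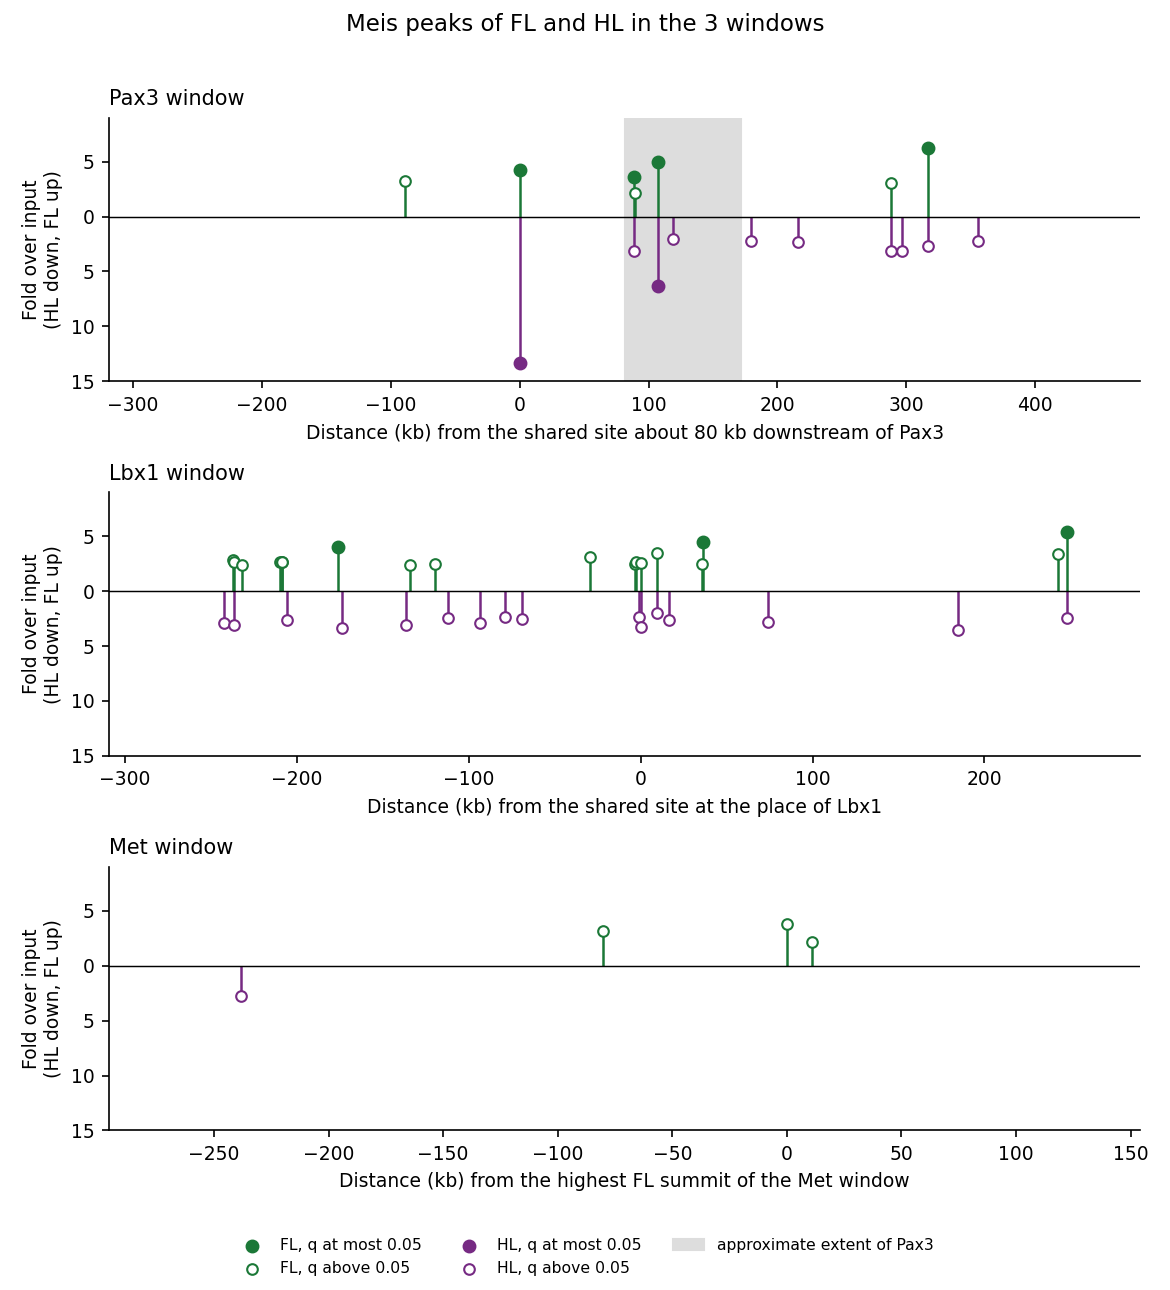
Fold over input of every member peak (vertical axis, FLs upwards and HLs downwards) against the distance in kb of its summit from a reference summit in the same window, with filled circles for q at most 0.05 and a grey band for the approximate extent of Pax3. The tallest line is the HL peak at the shared site downstream of Pax3 (fold 13.4), and no circle is filled for HLs outside the Pax3 window.

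Pax3 had the strongest sites. The site singled out in the choice of the window lies about 80 kb downstream of the gene, which is read from the minus strand and spans about 78.10 to 78.19 Mb. In FLs the peak ran from 78018364 to 78018582 on chromosome 1, with its summit at 78018490, a fold of 4.22 and a q of 0.00992. In HLs the peak ran from 78018382 to 78018790, with its summit at 78018484, a fold of 13.4 and a q of 3.8e-27. The HL peak ranked 20 among the 16987 HL peaks by fold, whereas 12.6% of FL peaks had a higher fold than the FL peak. The HL peak was also long, at 409 bp against 219 bp in FLs, and 2.56% of HL peaks were longer.

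Within the extent of Pax3 itself, 2 sites were occupied in both limbs and neither differed by as much as 1.5 times. The stronger had an FL peak from 78125698 to 78126178 (summit 78125949, fold 5.01, q = 0.000881). Its HL peak ran from 78125834 to 78126142 (summit 78125986, fold 6.30, q = 8.58e-07), and 2.08% of HL peaks had a higher fold. This site and the downstream site were the only member sites that passed a q of 0.05 in FLs and HLs alike. The weaker had an FL peak from 78106903 to 78107201 (summit 78107036, fold 3.63, q = 0.0206) and an HL peak from 78106890 to 78107218 (summit 78107048, fold 3.13, q = 0.195), so that only the FL peak passed a q of 0.05.

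The last shared site, about 150 kb upstream of Pax3, leaned the other way. The FL peak from 78335022 to 78335314 had its summit at 78335101, a fold of 6.26 and a q of 7.33e-07, and 3.75% of FL peaks had a higher fold. The HL peak from 78334958 to 78335161 had its summit at 78335055, a fold of 2.66 and a q of 1. The FL peak was the strongest of the 3 windows in FLs. The strongest HL peak was the one downstream of the gene, at the site known to be higher in HLs when the window was chosen. The next highest HL fold, 6.30, lay within Pax3. The remaining 3 FL peaks of the window had folds from 2.14 to 3.23 and the remaining 6 HL peaks folds from 2.01 to 3.12, none with a q of 0.05 or less.

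The Lbx1 window had no HL peak with q at most 0.05, and 3 FL peaks with it. The first of these lies about 180 kb below the gene in coordinate (45132811 to 45132963 on chromosome 19, summit 45132894, fold 4.03, q = 0.000121), and the nearest HL summit was 2319 bp away with a fold of 3.33. The second lies about 40 kb above the gene (45345519 to 45345754, summit 45345624, fold 4.50, q = 0.000245), and no HL summit lay within 20 kb of it. The third, near the upper edge of the window, was the only one of the 3 to overlap an HL peak. Its FL peak ran from 45557152 to 45557459 (summit 45557316, fold 5.36, q = 7.53e-05) and its HL peak from 45557106 to 45557392 (summit 45557203, fold 2.48, q = 1).

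At Lbx1 itself, placed at about 45.31 Mb, occupancy was weak in both limbs. Within about 10 kb of that place lay 4 FL peaks with folds from 2.52 to 3.49 and 3 HL peaks with folds from 2.01 to 3.28. Both of the other shared sites of the window were among them. At the closer one the FL peak (45309205 to 45309364, summit 45309263) had a fold of 2.53 and a q of 1, and the HL peak (45309140 to 45309300, summit 45309251) a fold of 3.28 and a q of 0.255. At the other, the FL peak (45318896 to 45319030, summit 45318955) had a fold of 3.49 and a q of 0.366, and the HL peak (45318928 to 45319050, summit 45318968) a fold of 2.01 and a q of 1. No peak at either site thus passed a q of 0.05. The highest HL fold of the window, 3.57 with a q of 0.386, was at an unshared peak (45493671 to 45493770, summit 45493724). The other 13 FL peaks had folds from 2.35 to 3.41 and the other 12 HL peaks folds from 2.38 to 3.33. In the gene order of GRCm38, Lbx1 stands between Tlx1 and Btrc, so peaks of this window also lie near other genes.

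Met, the receptor, had the least occupancy of the 3. Its highest FL peak (17495667 to 17495882 on chromosome 6, summit 17495738) had a fold of 3.76 and a q of 0.105, and the other FL folds were 3.15 at 17415642 and 2.13 at 17506908. The single HL peak (17257385 to 17257523, summit 17257431) had a fold of 2.77 and a q of 1. No FL peak of the Met window overlapped an HL peak, and the nearest distance between FL and HL summits inside the window was 158211 bp. Cav1 and Capza2 are the neighbours of Met in GRCm38, while Pax3 stands between Epha4 and Gm2102, with Sgpp2 next above Gm2102. Peaks of these windows far from the named gene, such as the site upstream of Pax3, may thus lie nearer to another gene.

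Counted over the windows, 7 of 28 FL members had a q of 0.05 or less (25.0%, 95% Wilson interval 12.7 to 43.4%), beside 17.4% of all FL peaks. In HLs it was 2 of 27 members (7.41%, 2.06 to 23.4%), beside 10.1% of all HL peaks. The intervals cover counting error only. Both counts include the site downstream of Pax3 that was known when the window was chosen, so they are a description. For Pax3 4 of 7 FL peaks passed (57.1%, 25.0 to 84.2%) and 2 of 10 HL peaks (20.0%, 5.67 to 51.0%), in each limb with the site that was known when the window was chosen, so nothing is read from these shares. For Lbx1 3 of 18 FL peaks (16.7%, 5.84 to 39.2%) and 0 of 16 HL peaks passed, and for Met 0 of 3 and 0 of 1.

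Sharing between limbs, taken over the 3 windows together, was near the level of the full lists. Of the FL members 7 of 28 overlapped an HL peak by at least 1 bp (25.0%, 12.7 to 43.4%), beside 22.6% of all FL peaks, and of the HL members 7 of 27 overlapped an FL peak (25.9%, 13.2 to 44.7%), beside 29.0% of all HL peaks. By window, 4 of 7 FL peaks were shared for Pax3 (57.1%, 25.0 to 84.2%), 3 of 18 for Lbx1 (16.7%, 5.84 to 39.2%) and 0 of 3 for Met. In HLs it was 4 of 10 for Pax3 (40.0%, 16.8 to 68.7%), 3 of 16 for Lbx1 (18.8%, 6.59 to 43.0%) and 0 of 1 for Met. The Pax3 counts and the counts over the 3 windows include the site downstream of Pax3. It was known to be shared when the window was chosen, so these shares are a description. A q of 0.05 or less in both limbs was found in 2 of the 7 pairs, beside 24.9% of all 4813 shared pairs.

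The direction of the difference between limbs varied among the 7 pairs. HL fold was at least 1.5 times FL fold in 1 of them, beside 7.65% of all shared pairs, and this was the site downstream of Pax3 known when the window was chosen. There the HL fold was 3.16 times the FL fold, a log2 ratio of 1.66. The limbs share 201 bp there, 49.1% of the longer HL peak, so a rule that asked for 50% of each peak would not pair them. Only 6 of the 4813 shared pairs had a higher HL to FL ratio, and it ranked 1 among the 1200 pairs that passed a q of 0.05 in FLs and HLs alike. The higher HL fold of this site was known when the window was chosen, so nothing is read from these ranks. FL fold was at least 1.5 times HL fold in 3 of the 7 pairs, beside 22.2% of all shared pairs. The ratio of FL to HL fold was 2.35 at the site upstream of Pax3, 2.16 at the site near the upper edge of the Lbx1 window and 1.73 at the site about 10 kb above Lbx1. In these 3 pairs the HL peak had a q of 1.

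**Figure D2:**
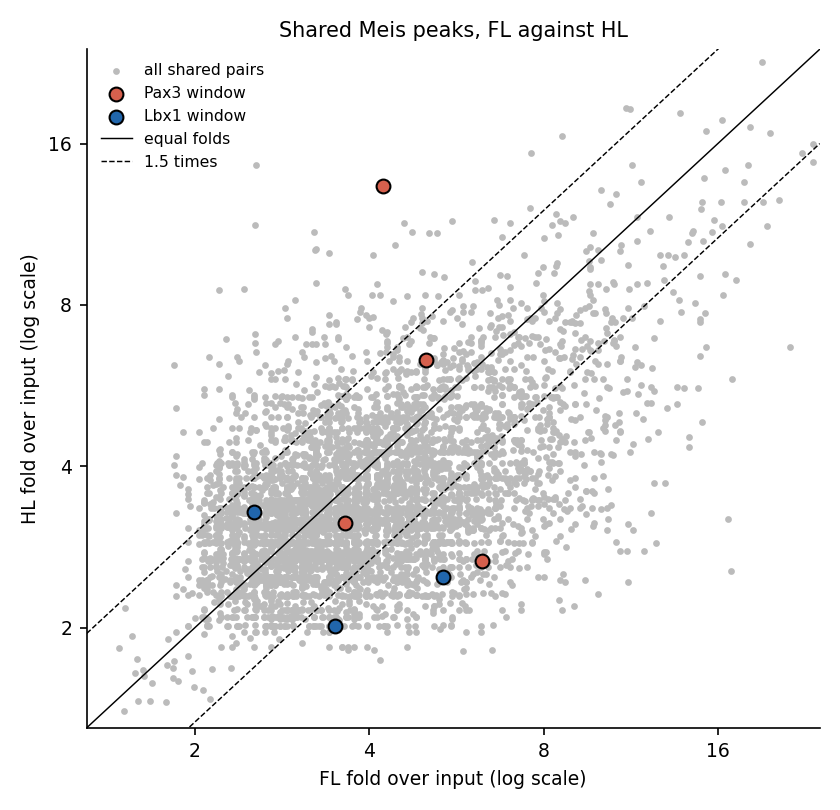
HL fold against FL fold, both over input and on log scales, for all 4813 shared pairs (grey) and the 7 pairs of the Pax3 and Lbx1 windows. The site downstream of Pax3 (4.22 in FLs, 13.4 in HLs) lies far above the dashed line for 1.5 times, and 3 pairs lie below the lower dashed line.

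The median log2 ratio of HL to FL fold over all shared pairs was -0.17, so FL folds were slightly higher overall. Relative to that median, the log2 ratio was 1.83 at the site downstream of Pax3, 0.50 and -0.04 at the stronger and the weaker site within Pax3, and -1.06 at the site upstream. For the Lbx1 window it was 0.55 at the gene, -0.63 about 10 kb above it and -0.94 near the upper edge. No pair changed direction with this shift, and the median over the 7 pairs before it was -0.21.

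**Figure D3:**
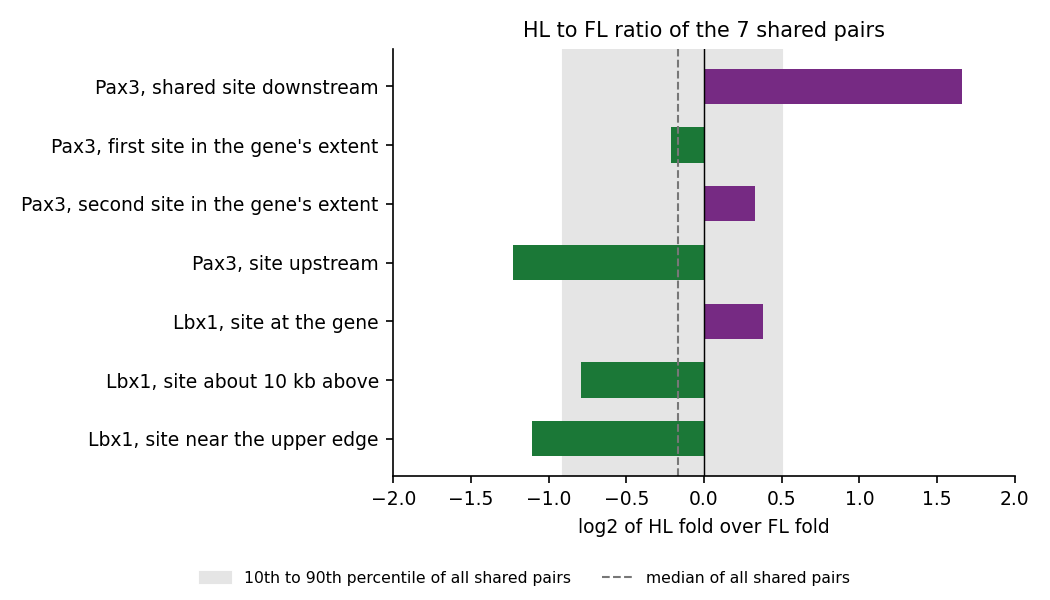
Log2 ratio of HL to FL fold (horizontal axis) for the 7 shared pairs, in order along each window, with a grey band for the 10th to 90th percentile of all shared pairs (-0.91 to 0.50) and a dashed line for their median (-0.17). The site downstream of Pax3 lies above the band, the site upstream of Pax3 and the site near the upper edge of the Lbx1 window lie below it, and the other 4 lie inside.

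The position of the summits within shared sites was not used to choose the members. FL and HL summits lay 6 bp apart at the site downstream of Pax3, 12 bp and 37 bp apart at the weaker and the stronger site within the gene, and 46 bp apart at the site upstream. In the Lbx1 window the distances were 12 bp at the gene, 13 bp about 10 kb above it and 113 bp near the upper edge. The median of the 7 was 13 bp, beside 30 bp over all shared pairs, and 6 of the 7 lay within 100 bp, beside 85.5% of all pairs. At the site with the widest difference in fold the limbs thus had nearly the same summit, and 11.4% of all shared pairs had closer summits. That site passed a q of 0.05 in FLs and HLs alike. Over the 1200 shared pairs that did so the median distance was 17 bp, with 94.4% within 100 bp.

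**Figure D4:**
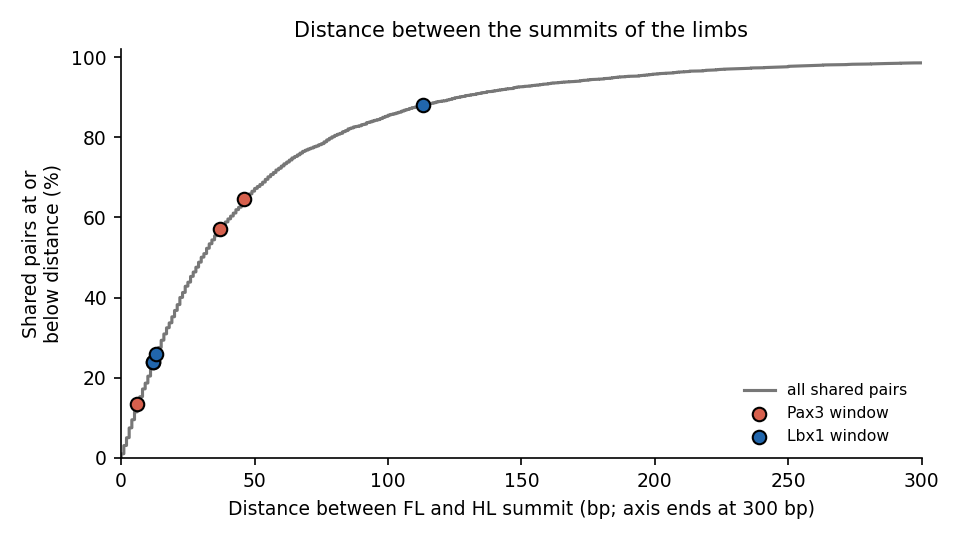
Cumulative share of all shared pairs (vertical axis, %) at or below a given distance in bp between the FL and HL summits, with the 7 pairs of the Pax3 and Lbx1 windows marked on the curve. The members run from 6 bp to 113 bp, and 4 of them lie below the median of all pairs (30 bp).

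Unshared members were weaker than shared ones at the top of their range, with folds from 2.13 to 4.50 for 21 FL peaks and from 2.01 to 3.57 for 20 HL peaks. Some had a summit of the other limb close by without a shared base. Upstream of Pax3 the FL peak at 78306682 (fold 3.06) and the HL peak at 78306899 (fold 3.09) had summits 217 bp apart, and in the Lbx1 window the FL peak at 45072211 (fold 2.88) and the HL peak at 45072414 (fold 3.12) had summits 203 bp apart. In these places the count of shared sites rests on the definition of overlap. In all, 4 of 21 unshared FL members had an HL summit within 1 kb, beside 8.46% of all unshared FL peaks. In HLs, 3 of 20 unshared members had an FL summit within 1 kb, beside 9.66% of all unshared HL peaks. The remaining ones would add no site. The FL peak at 45072910 lies near the same HL peak at 45072414, and the FL peak at 78108043 and the HL peak at 45308569 lie near peaks that were already shared.

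The members nearest to the window edges were set beside the peaks just outside. Outside the edges, the nearest peaks of each limb lay 6.24 to 155 kb away with folds from 2.09 to 4.11, and 1 of these 12 had a q of 0.05 or less. It was an HL peak below the Pax3 window, with its summit at 77614096, a fold of 4.11 and a q of 0.0313. Inside, the nearest peaks lay 42.7 to 393 kb from an edge with folds from 2.13 to 13.4. The single HL peak of the Met window was the nearest to both edges (57.4 and 393 kb) and is counted at each. Of these 12 entries, 3 had a q of 0.05 or less, beside 17.4% of all FL peaks and 10.1% of all HL peaks. The strongest was the HL peak downstream of Pax3. It is among the 3 and was known when the window was chosen, so nothing is read from inside against outside.

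Other genes of the pathway were taken from a list of 19, made of migration signals, guidance molecules, transcription factors and cofactors, and myogenic factors. Of these, 10 were named with at least 1 shared peak in the authors' assignment of peaks to genes, of which only a portion was used here, and 9 were not named in that portion. The paper's methods extend the domain of each gene towards its neighbours, so a named peak can lie far from the gene. No distances were taken here, and below a gene is said to have the peaks named with it. The 10 genes had 25 shared peaks. In FLs 12 of the 25 had a q of 0.05 or less, beside 51.8% of all shared pairs, in HLs 8 of 25, beside 32.5%, and 6 of 25 passed in both limbs, beside 24.9%. The median FL fold was 3.63, beside 3.77 over all shared pairs, so these peaks were about as strong as shared peaks in general.

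Among the signals, Cxcl12, the chemokine ligand of Cxcr4, had 2 shared peaks, both on chromosome 6. At 116743871 the FL fold was 4.83 and the HL fold 6.00, and at 117031633 they were 3.23 and 5.03. Hgf, the ligand of Met, had 1, with folds of 3.53 in FLs and 3.85 in HLs and a q above 0.05 in both. Of these 3 peaks only the Cxcl12 peak at 117031633 differed by 1.5 times or more between limbs. Efna5, an ephrin of the guidance pathway, had 6, the highest of them at 63025200 on chromosome 17 (FL fold 7.44, HL fold 6.95). At another Efna5 peak, with its summit at 62810837, the fold was 7.16 in FLs and 3.46 in HLs. Epha4, a receptor for ephrins and the neighbour of Pax3, had 2, of which the weaker site within Pax3 was one, since the assignment names it with both genes.

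Among the cofactors and transcription factors, the highest FL fold was at a peak named with Eya2, a transcriptional cofactor (8.0 in FLs and 3.57 in HLs, at 165479291 on chromosome 2). Its relative Eya1 had 3 shared peaks, the highest with folds of 6.57 in FLs and 5.78 in HLs. Meox1 and Meox2, homeobox factors of the somite, had 3 each. At the Meox1 peak of highest FL fold the FL fold was 5.18 and the HL fold 4.26, and FL fold was also the higher at the other Meox1 peaks. At the Meox2 peak of highest FL fold they were 5.18 and 4.25, but the other 2 Meox2 peaks had the higher fold in HLs. FL and HL folds there were 3.16 and 4.98 at 37520485 on chromosome 12 and 2.54 and 3.85 at 37853213. The FL peak had a q above 0.05 at both, and at 37853213 so did the HL peak (q = 0.129). Msc had 1, with folds of 4.47 in FLs and 3.12 in HLs, and Dmrt2 had 1, with 2.51 and 2.09. Pax7, Six4, Tcf21, Gab1, Cxcr4 and the myogenic factors Myf5, Myf6, Myod1 and Myog were not named in the portion used, which says nothing about peaks outside it. HL fold was at least 1.5 times FL fold at 3 of the 25 peaks, beside 7.65% of all shared pairs, and FL fold at least 1.5 times HL fold at 2, beside 22.2%. The FL peak had a q above 0.05 at each of the 3, and the HL peak at each of the 2. None had a log2 ratio of HL to FL above 0.66.

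**Figure D5:**
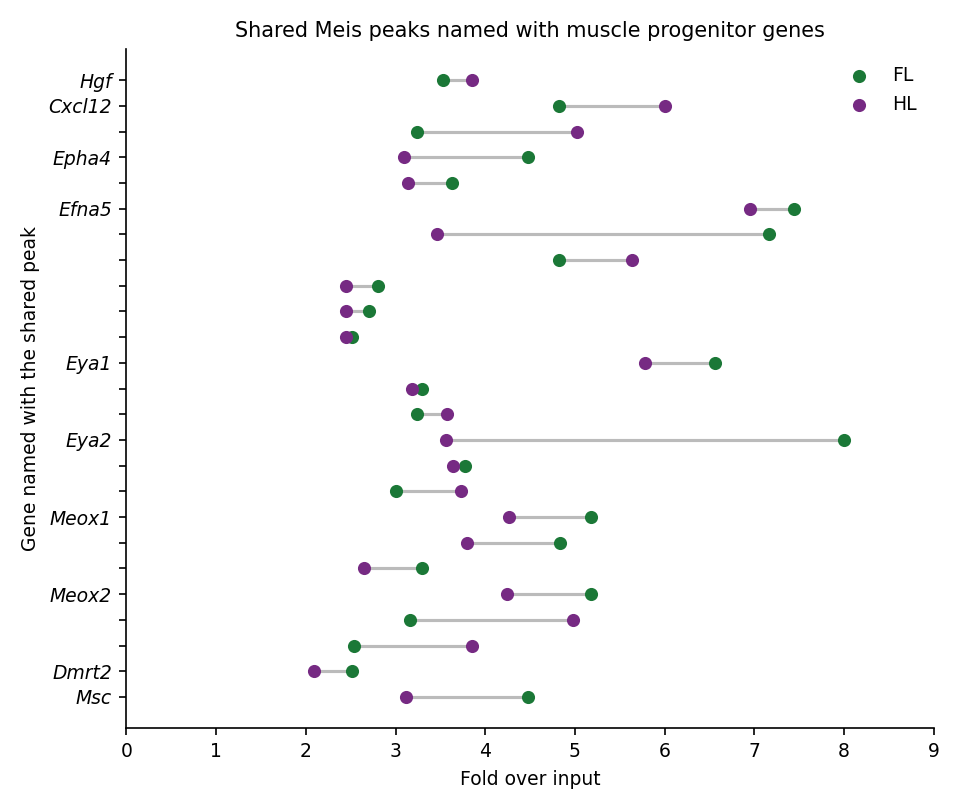
Fold over input (horizontal axis) in FLs (green) and HLs (purple) at the shared peaks named with 10 of the 19 pathway genes, 1 line per peak and gene, with a grey bar between the limbs. The widest gap is at an Eya2 peak (8.0 in FLs, 3.57 in HLs).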

How the data were processed

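Meis ChIP and input libraries of FLs and HLs (1 each, 50 bp reads) were processed by the authors, with BWA (reads to mm9) and MACS2 (peaks of a ChIP library over its own input); the submitters' notes also list CASAVA 1.8.2, cutadapt 1.3 and SAMtools. The deposited fold is the ratio of ChIP signal to local input background, and the deposited −log10 p and −log10 q come from the authors' peak caller. The lists reach p-values of 0.022 (FLs) and 0.0217 (HLs). Depth per library was not used here. Positions are counted from 1.

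Summits reported for an identical interval were merged into 1 peak (highest fold, lowest q). Peaks with at least 1 bp in common were shared, and an FL peak with several HL partners took the one of highest fold. A call was 1.5 times. Density used a genome of 2629.9 Mb, the summed highest ends of the lists. Tools were scipy 1.17.1, pandas 2.3.3, matplotlib 3.10.9 and numpy 2.4.6 in Python 3.11.15, and the pairing was tested on simulated data. Sites given in full were, in each window, shared pairs, peaks with q at most 0.05 and the highest peak of each limb. Gene places in mm9 are approximate; GRCm38 served only for gene order, and no sequence of the peaks was used. Members and lists were chosen with earlier results of these data known. Results on 2 further genes planned for the pathway list are not reported here. Alternatives varied cutoffs, the overlap, the window, the pairing, the centring and the counting of summits.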

Additional observations from a re-analysis of the deposited data

How the results depend on the processing

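The number of pairs with HL fold at least 1.5 times FL fold was 1, the site downstream of Pax3, under both centrings and with nearest summits within 100 bp. At p at most 0.0005, summits in the windows numbered 12 in FLs and 11 in HLs, that is 6.49 and 5.95 per Mb beside 2.79 and 2.53 over the lists. In FLs 4 were in the Pax3 window (0.8 Mb), 6 in the Lbx1 window (0.6 Mb) and 2 in the Met window (0.45 Mb). In HLs they numbered 6, 5 and 0, so the HL contrast in density between Lbx1 and Pax3 was much smaller than in the full lists. Shared pairs were 4, all at Pax3. The stricter cutoff lowers counts by construction. FL members with q at most 0.05 were 3 of 28 when a fold of at least 5 was also asked for, beside 1636 of all 21338 FL peaks. HL members were 2 of 27, beside 794 of all 16987 HL peaks. The HL count includes the site downstream of Pax3 that was known when the window was chosen, so nothing is read from it. Counted as peaks instead of summits, FL density was 15.1 per Mb (16.2 as summits), beside 8.11 over the list. With reciprocal overlap of at least 50%, 5 of the 7 pairs were left, without the site downstream of Pax3 (49.1% of the longer peak) and the site upstream (47.8%). Under that overlap, an alternative for the fold calls that was chosen after seeing the data, pairs with HL fold at least 1.5 times FL fold numbered 0 and pairs with FL fold at least 1.5 times HL fold 2.

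No single pair changed sign under the alternatives that gave it a value. The median log2 ratio of the member pairs was near 0 and moved from -0.21 to -0.04 when centred on all shared pairs, to -0.05 when centred on pairs that passed a q of 0.05 in FLs and HLs alike, and turned to 0.06 with nearest summits within 100 bp, which leaves out the pair near the upper edge of the Lbx1 window. On ranks within each list, the median shift from FLs to HLs was -6.54 percentage points.

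No paired analysis was possible because each limb had 1 library. Sequencing depth limits which weak peaks are listed at all.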

Other observations

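Peaks were counted as grouped where neighbouring summits of 1 limb lay at most 10 kb apart. In FLs this held for 14 of 18 peaks of the Lbx1 window, 2 of 7 of the Pax3 window and 0 of 3 of the Met window, beside 43.2% of all FL peaks. In HLs it held for 8 of 16, 2 of 10 and 0 of 1 in the same order, beside 39.1% of all HL peaks. In the Lbx1 window, 3 FL peaks lay within 4.85 kb from 45072211 to 45077057, and another 3 within 1.35 kb from 45099356 to 45100706, all 3 of these with a fold of 2.70. Around Lbx1, 4 FL peaks spanned 13.0 kb and 4 HL peaks 17.0 kb. None of the peaks in these groups had a q of 0.05 or less. Of 2 FL pairs of peaks that also lay close together, from 45345063 to 45345624 and from 45552215 to 45557316, each held 1 peak with a q of 0.05 or less. HL peaks formed 2 further pairs, from 45066984 to 45072414 and from 45230153 to 45240037, with no such peak. The Pax3 window had 1 pair in each limb, from 78107036 to 78108043 in FLs, with 1 such peak, and from 78306899 to 78314786 in HLs, with none.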
